A study of Mus musculus with 11 samples.

Results

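Regions of acetylated chromatin that were called after loss of the cohesin subunit Rad21, and in neither control library, numbered 690 of 24430 acetylated regions in all (2.82%). They were chosen by the peak calls themselves. Union regions were built by joining touching or overlapping peaks of 4 libraries. A region was taken where a peak of both Rad21-deleted libraries and of neither control library overlapped it by at least 1 bp. They are called KO-only regions here. The calls, lengths and scores of these libraries made the choice, so they are given as a description, with no test.

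The cells were CD4+ CD8+ double positive thymocytes, the stage of T cell development at which the T cell receptor alpha gene is assembled, sorted by flow cytometry from mice aged 6 weeks. In the Rad21-deleted (KO) mice a floxed Rad21 allele was removed by a Cre transgene driven by Cd4, which acts from this stage on, and the control (WT) animals were littermates, whose Cre and floxed alleles the labels do not give. Acetylation of lysine 27 of histone H3 (H3K27ac) was mapped by chromatin immunoprecipitation and sequencing (ChIP-seq) in 2 WT and 2 KO libraries, and the cohesin subunit Smc1a in 2 WT libraries. Separate mice or shared pools behind the 2 libraries of a genotype are not told apart in the labels, which also list no cohesin map of KO cells.

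H3K27ac marks active promoters and enhancers, so its peaks show where regulatory DNA is in use. Cohesin is a ring of Smc1a, Smc3 and Rad21 that extrudes DNA loops and, where it meets CTCF, holds loop anchors. These loops set which enhancers and promoters share a neighbourhood. Rad21 closes the ring, and without it the complex does not hold chromatin.

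The H3K27ac lists held 15686 to 21973 peaks and the Smc1a lists 17726 and 25484. Scores were assigned by the authors' peak caller, started at about 50 in every list, and are ranked here within a list. The percentile of a peak is its rank by score in its own list, from 0 (weakest) to 100 (strongest). Reads were not analysed, so depth is unknown. A region with no WT peak lacks a call at the authors' threshold, which is not a measured absence of acetylation. In bulk chromatin, fewer cells that carry the mark at a place and less mark per cell cannot be told apart. WT replicate 2 had the fewest peaks of the 4, and 2924 regions were called in every library but it, against 288 called in every library but WT replicate 1. Peaks on chromosome Y, 4 per library, were listed in WT replicate 2 and KO replicate 2 and not in the 2 libraries numbered 1. No KO-only region could lie on chromosome Y, since the rule asks for a peak of KO replicate 1 as well.

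Most KO-only regions were short and weak. Their median length was 1593 bp (95% interval of the median 1541 to 1640), with quartiles of 1262 and 2016 bp, against 2922 bp for the 12129 regions called in all 4 libraries and 1667 bp for the 569 WT-only regions (both WT libraries and no KO library). The median score was 84.5 in KO replicate 1 and 103 in KO replicate 2, which corresponds to percentiles of 16.8 and 23.4. Regions of all 4 libraries had median percentiles of 67.2 and 67.6 in the same lists. WT-only regions were weak too, with median percentiles of 21.6 and 17.6 in the lists of WT replicates 1 and 2. A score under 100 in both KO lists was found for 247 of the 690, and a score of at least 200 in both for 31. Without KO replicate 1 the median length was 1061 bp and the percentile in KO replicate 2 was 14.0, and without WT replicate 1 the percentile in KO replicate 1 was 28.4. The best peak lay above the median of both KO lists in 17 KO-only regions (2.46%). For WT-only regions and both WT lists the share was 1.93%.

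**Figure D1:**
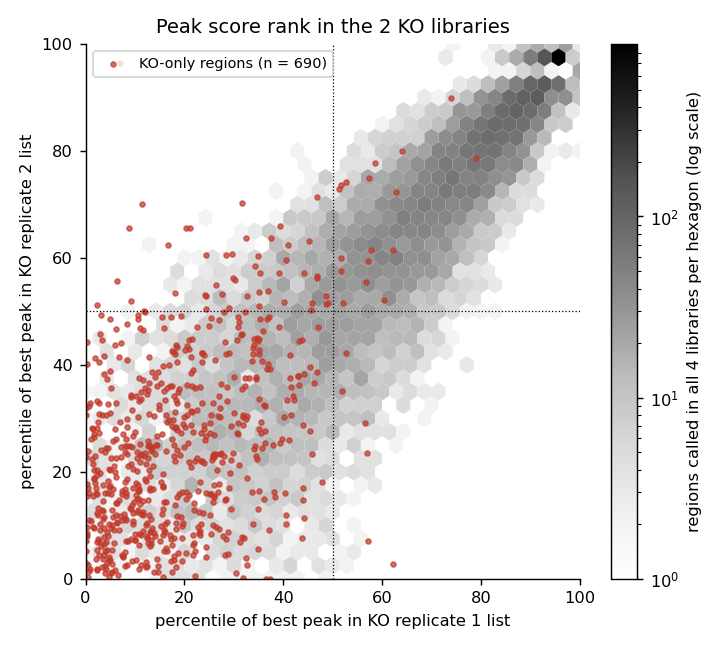
Each red point is 1 of the 690 KO-only regions, placed by the percentile of its best peak in the list of KO replicate 1 (x axis) and of KO replicate 2 (y axis), and grey hexagons count the regions called in all 4 libraries on a log colour scale. Most red points lie in the lower left, and 17 lie above the dotted list medians on both axes, while the grey mass lies in the upper right.

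The rule asks for a peak of both KO libraries in each region, so part of their agreement in place is built in. The measures of place given next were not set against other classes of regions. Of the 690, 674 were held by a single peak in each KO library, and at the median region 80.8% of the bases were covered by both (95% interval of the median 79.4 to 82.2). Rank differed between the KO libraries. The percentile was higher in KO replicate 2 for 446 of the 690 (64.6%), against 46.8% of the regions called in all 4 libraries. Among regions without a WT peak, reproducibility between KO libraries was partial. Of 1396 such regions with a peak of KO replicate 1, 49.4% were also called in KO replicate 2. Of 2028 with a peak of KO replicate 2, 34.0% were also called in KO replicate 1. The mirror shares for regions without a KO peak were 18.1% of those of WT replicate 1 and 51.3% of those of WT replicate 2. The KO libraries met far more often where both WT libraries had a peak. There, 12129 regions were called in both KO libraries, 654 in KO replicate 1 alone and 293 in KO replicate 2 alone.

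Just inside the rule lay regions whose nearest WT peak was a few bases away. The closest stood 6 bp from a peak of WT replicate 1 and is the longest region, described last. The next ones lay on chromosome 5 from 118533702 to 118536258 and on chromosome 10 from 90616938 to 90619782, at 32 and 33 bp, with scores of 75.57 and 60.54 and of 57.68 and 54.44 in KO replicates 1 and 2. These scores correspond to percentiles of 13.3 and 7.20 for the chromosome 5 region and of 4.72 and 3.42 for the chromosome 10 region. Just outside the rule, the region of both KO lists with the smallest WT overlap lay on chromosome 15 from 66809389 to 66817318. WT replicate 2 covered 1145 of its 7930 bp and WT replicate 1 none, against 7137 and 7885 bp in the KO libraries, with KO scores of 577.48 and 1074.85. A region of chromosome 6 from 11963974 to 11969490 had 825 bp covered in WT replicate 1, none in WT replicate 2, and 5049 and 5309 bp in the KO libraries, with KO scores of 620.57 and 2353.13. On chromosome 5, the region from 123398243 to 123403254 had 1208 bp covered in WT replicate 1 and KO scores of 90.42 and 321.18. The first and second of these left-out regions were strong: only 2 KO-only regions had a score above either of them in KO replicate 1. WT peaks covered under 25% of the region in 4 of the 15341 regions that both KO libraries shared with a WT library.

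The strongest KO-only regions were ranked by the lower of their percentiles in the KO lists, so that neither library alone could carry a region to the top. Among the 25 strongest, scores ran from 237.33 to 1024.28 in KO replicate 1 and from 249.14 to 2152.66 in KO replicate 2, on 14 chromosomes. KO replicate 2 gave the higher score in 21 of the 25. They were longer than KO-only regions in general, with a median of 2822 bp and a range of 1291 to 6189 bp. The region next in rank had scores of 236.03 and 282.28, close to those of the last of the 25 (237.33 and 298.41). Annotated genes of mm9, the build of the files, were not used here, so these loci are given by position and neighbourhood and not by gene.

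The strongest of all lay on chromosome 2 from 169501731 to 169507919 (6189 bp), with a score of 1024.28 in KO replicate 1 and 1044.24 in KO replicate 2. KO libraries covered 6112 and 6006 bp of it, and the nearest peaks of WT replicates 1 and 2 lay 107813 and 107582 bp away. It was not alone. A second KO-only region followed from 169514251 to 169517073, with scores of 376.55 and 853.97, and the third from 169519689 to 169521829, with 82.11 and 247.89. Across the 20099 bp from the first to the third, the KO libraries covered 10594 and 12202 bp with 3 and 5 peaks, and both WT libraries covered 0 bp. The third region lay nearest to WT peaks, at 93903 bp (replicate 1) and 93672 bp (replicate 2). The nearest reproducible Smc1a site (a merged region with a peak of both Smc1a replicates) was 363764 bp from it. The stretch thus stood apart from WT peaks and from reproducible Smc1a sites alike.

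Second in rank was a region of chromosome 9 from 42670212 to 42674846 (4635 bp). It had the highest KO replicate 2 score of the 25, 2152.66, beside 784.76 in KO replicate 1. WT peaks were 340723 bp (replicate 1) and 373261 bp (replicate 2) away, and a Smc1a site was 77415 bp away. Other strong regions far from any WT peak were found on chromosome 3 from 80952131 to 80954456 and on chromosome 13 from 31594341 to 31597710. The first scored 299.19 and 383.17, with its nearest WT peak at 637682 bp. The second scored 292.96 and 770.58, with its nearest at 524901 bp. On chromosome 1 from 184615471 to 184617886 the scores were nearly equal, 368.17 and 349.99, and the nearest WT peak stood 163588 bp off.

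A second kind of strong region lay beside acetylation that all libraries shared. The region of chromosome 19 from 46765982 to 46768051 scored 461.96 and 450.03 and began or ended 301 bp from a region called in all 4 libraries. On chromosome 9, the region from 45819622 to 45820912 (1291 bp, the shortest of the 25) scored 263.68 and 313.34, and its nearest WT peaks were at 129 and 117 bp. Both were absorbed into WT-called regions when peaks within 1000 bp were merged, and the other 23 of the 25 remained KO-only. On chromosome 4 from 134002088 to 134005369 the scores were 311.85 and 820.09, with WT peaks at 5535 and 4321 bp. Of the 25 strongest, 7 lay within 10 kb of a WT peak, 10 at 10 to 100 kb and 8 beyond 100 kb.

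In some strong regions the WT libraries differed in what lay nearby, and in others they did not. After the first and second in rank, the region of chromosome 9 from 66127389 to 66130415 had scores of 499.83 and 1119.32 and WT peaks at 21970 and 22064 bp, nearly the same in both. The fourth in rank, on chromosome 9 from 44285777 to 44288685, scored 476.61 and 751.67, with a peak of WT replicate 1 at 2140 bp but none of WT replicate 2 within 28104 bp. For the region of chromosome 4 from 128708682 to 128713233 (scores 426.95 and 305.37) these distances were 37234 and 225578 bp. WT replicate 2 has fewer peaks, and the part of this in the difference was not tested.

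**Figure D2:**
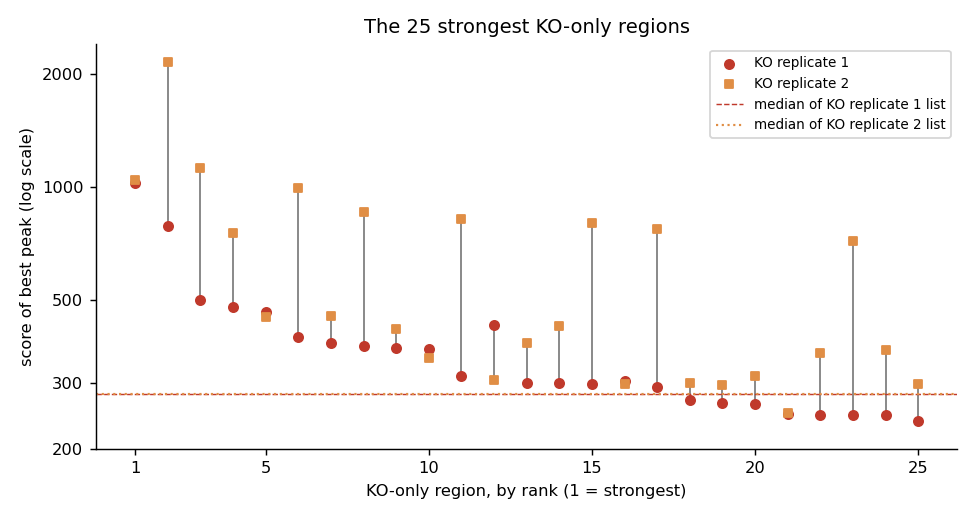
Scores of the best peak (y axis, log scale) in KO replicate 1 (circles) and KO replicate 2 (squares) for the 25 strongest KO-only regions in order of rank (x axis), with the median score of each list as a horizontal line. KO replicate 2 is the higher of the pair in 21 of 25 regions, and the first and second in rank have the highest KO replicate 1 scores, 1024.28 and 784.76.

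The distance to WT acetylation divided the KO-only regions into 71 within 1 kb of a WT peak (10.3%), 208 at 1 to 10 kb (30.1%), 322 at 10 to 100 kb (46.7%) and 89 beyond 100 kb (12.9%). Regions close to a WT peak were no stronger than remote ones. Median scores in KO replicate 1 were 75.6, 81.3, 87.5 and 94.2 from the nearest to the farthest class, and in KO replicate 2 they were 94.8, 103, 106 and 97.6. The median distance to a WT peak was 16510 bp (95% interval of the median 13437 to 18439). WT-only regions lay 5589 bp from a KO peak (4929 to 6351). Without WT replicate 1 the KO-only median was 25268 bp. The distance was 17834 bp to the nearest peak of WT replicate 1 and 26818 bp to that of WT replicate 2.

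KO-only regions were found farther from shared acetylation than WT-only regions. A region of all 4 libraries lay within 10000 bp of 192 of the 690 (27.8%, Wilson 95% interval 24.6 to 31.3) and of 317 of the 569 WT-only regions (55.7%, 51.6 to 59.7). For regions of all 4 libraries, the share with another such region at that distance was 43.4% (42.5 to 44.3). Within 100 kb the shares were 77.8%, 94.6% and 87.9%. Regions are not replicates and the same libraries defined the classes, so no test was made, and the intervals cover counting error only. Among the union regions nearest to each KO-only region, 317 were called in all 4 libraries (45.9%). A further 114 were called in both KO libraries and WT replicate 1 alone, 149 had KO peaks and no WT peak, and 44 had WT peaks and no KO peak.

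**Figure D3:**
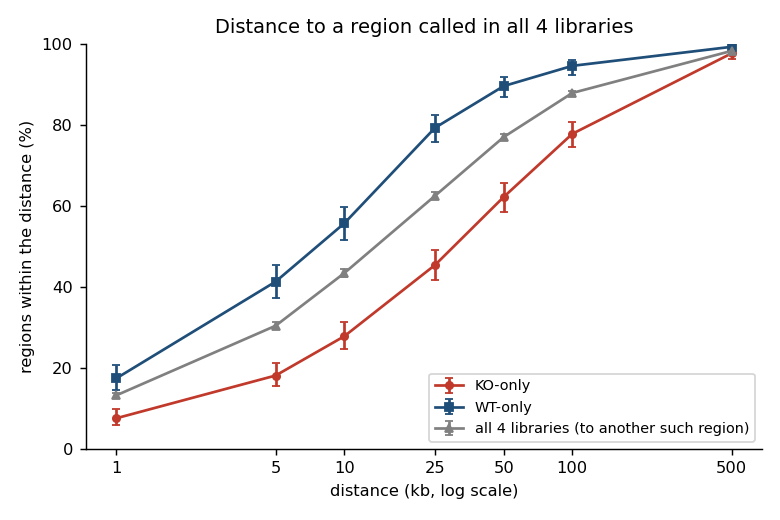
Share of regions (y axis) with a region called in all 4 libraries within a given distance (x axis, kb, log scale), for KO-only and WT-only regions and for regions of all 4 libraries measured to another of their kind, with Wilson 95% intervals as bars. The KO-only curve lies lowest up to 100 kb, with 27.8% at 10 kb against 55.7% for WT-only regions.

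The 5 KO-only regions farthest from any WT peak were of low or middle score. They lay on chromosomes 5 (2 of them), 14, 2 and 3, at 1652483, 1365400, 1196209, 981625 and 955934 bp from the nearest WT peak. The first, on chromosome 5 from 48763073 to 48764436, had scores of 79.12 and 51.50. The third, on chromosome 14 from 44502776 to 44503431, was 656 bp long with scores of 58.30 and 51.30. The fourth, on chromosome 2 from 85860476 to 85860938, was shorter still (463 bp) with 141.97 and 131.92. The fifth, on chromosome 3 from 80603246 to 80605602, scored 129.45 and 287.62, the highest KO replicate 2 score of the 5. It shares its chromosome and wider surroundings with the strong region of chromosome 3 given above.

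Few KO-only regions lay close to another one. Another KO-only region lay within 50000 bp of 82 of the 690 (11.9%, 9.68 to 14.5), against 30.2% of WT-only regions (26.6 to 34.1) that had another WT-only region at that distance. Leaving out a library, which adds KO-only regions, raised the KO-only share to 38.3% (without WT replicate 1), 29.9% (without KO replicate 1) and 19.6% (without WT replicate 2 or KO replicate 2). The 82 formed 36 pairs, 2 groups of 3 and 1 group of 4.

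The group of 4 lay on chromosome 6 from 39235278 to 39282258. Its members scored 69.21, 59.87, 136.26 and 72.96 in KO replicate 1 and 77.41, 121.84, 227.36 and 277.57 in KO replicate 2. KO libraries covered 5439 and 5405 bp of the 46981 bp span with 4 peaks each, and WT libraries covered none. On chromosome 13 from 13918734 to 13938599, 3 members scored 54.99, 123.48 and 53.56 in KO replicate 1 and 271.63, 319.78 and 294.42 in KO replicate 2, so 2 of the 3 were near the lowest score in KO replicate 1 and all were at mid-rank in KO replicate 2. KO libraries covered 4592 and 6560 bp of its 19866 bp and WT libraries none, and 1 Smc1a site lay within the span. The other group of 3 is the chromosome 2 stretch that holds the strongest region.

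Among the pairs, the 2 with the strongest members lay on chromosome 9 from 44285777 to 44333185 and on chromosome 7 from 119539609 to 119549854. The first is not a KO-specific stretch, since WT libraries covered 12179 and 9452 bp between its members, against 15008 and 18583 bp in the KO libraries. The second held no WT peak, with 3341 and 3595 bp covered in the KO libraries and scores of 144.99 and 371.85 (KO replicate 1) and of 498.93 and 416.31 (KO replicate 2).

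Acetylation around the KO-only regions was measured in the 50000 bp on either side, leaving out the regions themselves. WT libraries held 3.27 and 2.61 Mb of called acetylation there and KO libraries 3.30 and 3.11 Mb (means 2.94 ± 0.471 and 3.21 ± 0.136 Mb, SD, n = 2 each). The values of the genotypes overlapped, and the difference of 0.266 Mb was smaller than the SD of the WT libraries. It was 0.0290 Mb between the libraries numbered 1 and 0.504 Mb between those numbered 2. As a share of all covered bases the flanks held 5.81% and 5.72% in WT and 6.27% and 6.54% in KO libraries. On that scale both KO libraries lay above both WT libraries, by 0.638 percentage points on average. These libraries also chose the regions, so the flanks are a description, with no test. Without WT replicate 2 or KO replicate 1 the difference in Mb turned negative, at -0.230 and -0.577.

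The Smc1a lists come from libraries that played no part in choosing the regions. They show where cohesin sat in WT cells. A reproducible Smc1a site overlapped 41 of the 690 KO-only regions (5.94%, Wilson 95% interval 4.41 to 7.96). For WT-only regions the share was 12.1% (9.70 to 15.1), and for regions of all 4 libraries 20.3% (19.6 to 21.1). A site lay within 10000 bp of 202 KO-only regions (29.3%, 26 to 32.8). The shares at that distance were 49.2% of WT-only regions and 43.8% of regions of all 4 libraries. With Smc1a replicate 1 alone, the KO-only share within 10000 bp was 47.0%. The median distance to a site was 23816 bp (20462 to 26803), against 10518 bp (8392 to 12254) for WT-only regions and 13209 bp (12740 to 13685) for regions of all 4 libraries. No chance test was made on these classes of regions, which are not replicates.

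The contrast with WT-only regions depended on the Smc1a replicate. With peaks of replicate 1, 13.9% of KO-only (11.5 to 16.7) and 16.7% of WT-only regions (13.9 to 20) had an overlap, and the intervals overlapped. With peaks of replicate 2 the shares were 6.81% (5.16 to 8.94) and 16.0% (13.2 to 19.2). Regions of all 4 libraries stood above both in either replicate, at 33.8% and 25%. Region length mattered as well. Up to 1500 bp a reproducible site overlapped 4.67% of KO-only (2.80 to 7.68) and 4.43% of WT-only regions (2.35 to 8.21), and from 1500 to 2500 bp it overlapped 5.61% (3.58 to 8.69) and 13.4% (9.83 to 18). Over 2500 bp the shares were 13% (7.02 to 23.0, 69 regions) and 24.7% (17.2 to 34.2, 97 regions). The regions of all 4 libraries had 8.26%, 10.1% and 26.4% in the same length bands.

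**Figure D4:**
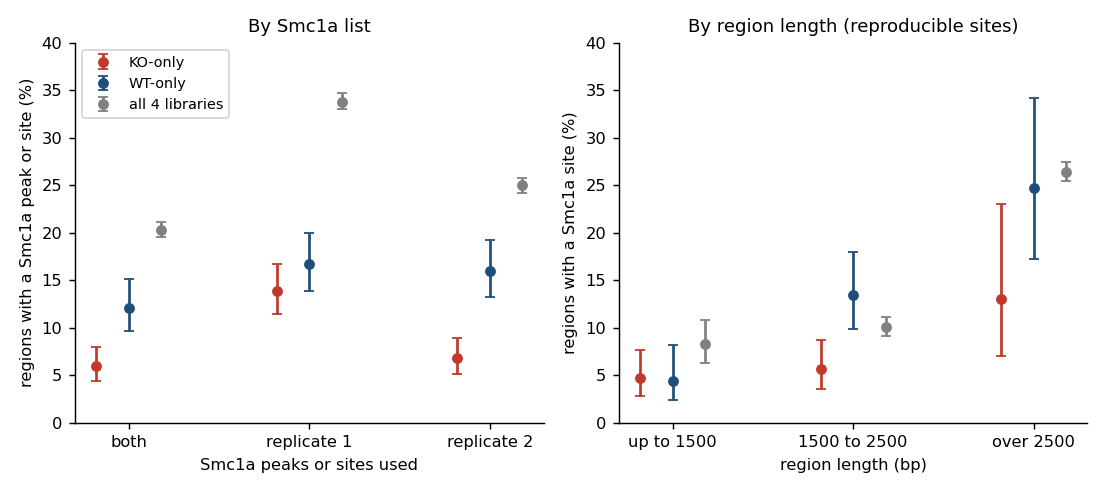
Share of KO-only regions, WT-only regions and regions of all 4 libraries (colours) that a Smc1a peak or site overlaps (y axis), by the Smc1a list used (left) and by region length for reproducible sites (right), with points as shares and bars as Wilson 95% intervals. KO-only and WT-only regions lie close with replicate 1 peaks (13.9% and 16.7%) and up to 1500 bp, and apart with replicate 2 peaks (6.81% and 16.0%).

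Smc1a sites thinned out with distance from WT acetylation. A site within 10000 bp was found for 36.6% of KO-only regions within 1 kb of a WT peak (26.4 to 48.2), 35.6% of those at 1 to 10 kb (29.4 to 42.3), 28.6% at 10 to 100 kb (23.9 to 33.7) and 11.2% beyond 100 kb (6.22 to 19.5). In the remotest class 2 of 89 regions overlapped a site, and the median distance to one was 102062 bp. For overlap itself the shares were 5.63%, 8.17%, 5.59% and 2.25% over these classes, with overlapping intervals. By strength, a site overlapped 4.62% of the weakest 173 regions (2.36 to 8.86) and 7.51% of the strongest 173 (4.44 to 12.4), with overlapping intervals too.

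The 41 regions with a site held 46 sites, of which 31 were centred in the inner 50% of the region. The median score of these sites was 290 in Smc1a replicate 1 and 138 in replicate 2, near the 268 and 137 of all 14848 reproducible sites. The strongest of the 41 was also the single region with a site among the 25 strongest overall. It lay on chromosome 16 from 78197048 to 78201176 (4129 bp), with scores of 297.95 and 800.31, 173909 bp from the nearest WT peak. KO replicate 1 covered 2156 bp of it and KO replicate 2 all 4129 bp. Its sites ran from 78197670 to 78198166 and from 78198540 to 78199514, with Smc1a scores of 455.09 and 430.74 in replicate 1 and of 337.81 and 308.84 in replicate 2.

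Next in strength with a Smc1a site were regions on chromosome 7 from 97501111 to 97503558 (scores 157.69 and 430.26), chromosome 11 from 115881273 to 115884444 (156.55 and 171.62), chromosome 3 from 50102967 to 50105129 (205.37 and 151.47) and chromosome 9 from 51759860 to 51762490 (154.38 and 229.11). They lay 10018, 223, 1034 and 8114 bp from a WT peak, so none was remote. Their overall ranks by strength were 66, 68, 70 and 72.

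The longest KO-only region was unlike the others. It spanned 78223 bp of chromosome 14, from 54782908 to 54861130, where the second longest had 6189 bp. From general knowledge of the mouse genome, and not from an annotation of mm9, this is the end of the T cell receptor alpha locus, which holds the joining segments, the constant gene and their enhancer, up to the gene Dad1. In the gene order of RefSeq's GRCm38 annotation, Traj segments are followed by Trac, the constant gene, then by Dad1, which encodes a subunit of the oligosaccharyltransferase complex, and by Abhd4. Thymocytes at this stage transcribe and rearrange the locus.

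The KO libraries called the stretch in different ways. KO replicate 1 gave a single peak of 78214 bp with a score of 61.86 (percentile 6.94). KO replicate 2 gave 5 peaks of 19341, 5707, 5563, 13714 and 31331 bp with scores of 1281.33, 818.69, 656.98, 1317.91 and 3100. The last score is a tied value that 1245 of the 20244 peaks of KO replicate 2 carried, at percentile 96.5. The rank of the region by the lower percentile was 483 of 690, which the score of KO replicate 1 sets. No WT peak lay on the stretch, while WT replicate 1 had a peak of 5085 bp that ended 6 bp before it with a score of 516.70, and WT replicate 2 one that ended 2707 bp before it with 192.56.

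Smc1a in WT cells was strong at this place. Of 4 reproducible sites on the region, the one from 54845267 to 54849464 held peaks with scores of 2687.44 and 2316.07, and the one from 54858285 to 54859323 held 3163.02 and 1709.78. The sites from 54787996 to 54788970 and from 54813502 to 54814366 were weak, with 128.08 and 53.21 and with 60.35 and 58.68. Both strong sites lay toward the Dad1 end. At the far end the next WT peaks began at 54872272 (replicate 1) and 54872818 (replicate 2), beyond the end of the region at 54861130. Whether WT cells lacked acetylation there was not tested, since reads were not analysed.

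**Figure D5:**
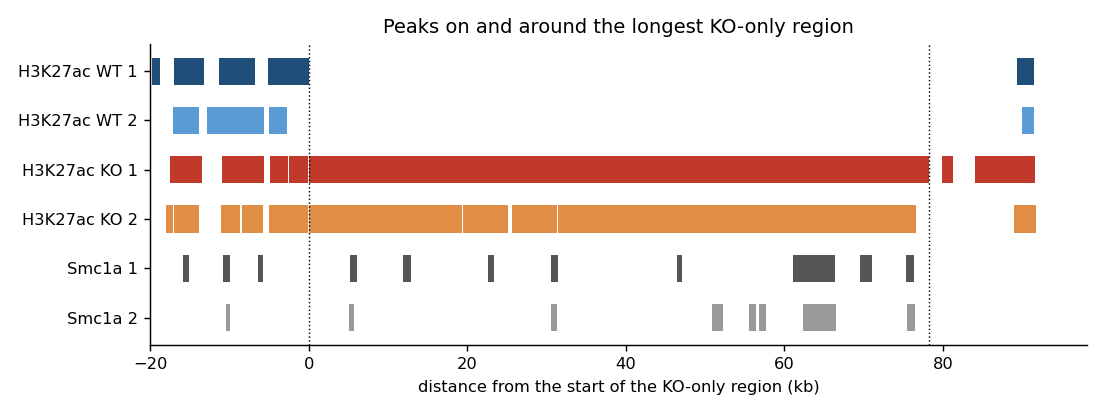
Peaks of each library (rows) on the longest KO-only region and 20 kb either side, by distance from its start in kb (x axis), with dotted lines at its ends. KO replicate 1 fills the region with 1 peak and KO replicate 2 with 5, WT peaks stop at or before its start and resume beyond its end, and the widest Smc1a peaks lie near its far end.

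By chromosome, the KO-only share of union regions ran from 1.80% (chromosome 14, 16 regions, 1.11 to 2.90) to 4.42% (chromosome 3, 54 regions, 3.40 to 5.72) over the autosomes and X, around the 2.82% of all regions. Chromosome 9 came second with 3.92% (52 regions, 3.0 to 5.10) and held 4 of the 25 strongest. On chromosome X it was 2.43% (13 regions, 1.42 to 4.11). The intervals of chromosomes 3 and 9 lie above the value for all regions, which is a description of these calls over 20 chromosomes.

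Which weak regions were KO-only depended on the threshold. With the upper 75% of each list by score, 544 regions were KO-only, and 146 of the 690 (21.2%) overlapped one of them. With equal numbers of peaks per list there were 615, overlapped by 204 of the 690 (29.6%). All of the 25 strongest still overlapped a KO-only region in both cases, which was fixed in advance. Both cuts remove only the weakest peaks of each list, and rank 25 had a lower percentile of 45.8. A KO-only region is likewise kept only where its peaks in both KO lists pass the cut. Without WT replicate 1, the library with the most peaks, 3667 regions counted as KO-only, and the count was 2092 without KO replicate 1 and 1432 without KO replicate 2.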

How the data were processed

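Peak lists of 6 ChIP-seq libraries of sorted mouse thymocytes were used: H3K27ac in 2 WT and 2 KO libraries and Smc1a in 2 WT libraries. The submitters' processing notes name Bowtie 0.12.8 and the build mm9. Each deposited list holds a start, an end and a score per peak of a single library, with this score assigned by the authors' peak calling. Peaks carry MACS names, and no label or header gives the caller's version, settings or control inputs. The 5 input libraries were not analysed here.

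Union regions joined all peaks that touched or overlapped. A library counted as holding one from 1 bp of overlap on. Scores were ranked within a list only. Named were the 25 regions with the highest lower percentile of the KO lists, the 5 strongest with a Smc1a site, the 5 farthest from a WT peak, the 5 largest groups (chained within 50000 bp) and 3 regions on each side of the rule. Shares have Wilson 95% intervals and medians have order-statistic 95% intervals. Both cover counting error only. The planned permutation test of covered lengths is not reported, since the same lists chose the regions and the smallest p that 2 against 2 libraries allow is 0.333. The interval functions were tested on simulated data. Alternatives were a stricter threshold, equal list sizes, merging within 1000 bp, 50% cover, other windows, other Smc1a lists, the replicate block and leaving out each library. Leaving out the longest region was chosen after seeing the data. The regions and lists were chosen with earlier results of these data known. Planned counts of gene starts, gene lists and motifs needed an mm9 annotation and genome, which were not used here. Python 3.11.15, numpy 2.4.6, pandas 2.3.3, scipy 1.17.1 and matplotlib 3.10.9 were used.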

Additional observations from a re-analysis of the deposited data

How the results depend on the processing

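Of 102 alternatives to 10 results, 50 were counted as unchanged, 50 as moved and 2 as reversed. The cause was not tested, except where fewer libraries or another window give it by construction. The number of KO-only regions and the flank difference have no interval. Among their alternatives counted as unchanged are numbers from 544 to 990 beside 690, and differences from 0.132 to 0.295 Mb beside 0.266 Mb. Leaving out a library in turn gave 990 to 3667 KO-only regions (3667 without WT replicate 1, 2092 without KO replicate 1), median lengths of 1061 to 1841 bp, median percentiles of 11.5 to 28.4 in KO replicate 1 and 14.0 to 33.1 in KO replicate 2, and median distances to a WT peak of 12436 to 25268 bp. It gave shares of 28.7 to 36.9% near a region of all remaining libraries, 19.6 to 38.3% with another KO-only region within 50000 bp, 5.83 to 13.9% on a Smc1a site and 28.6 to 47.0% within 10000 bp of one. Over flanks of regions chosen anew without the library, the difference in flank coverage ran from -0.577 Mb (without KO replicate 1) to 0.295 Mb. It was -0.230 Mb without WT replicate 2, so its direction depended on the libraries used to choose and measure the regions. With the replicate block it was 0.266 Mb, as without it, and the paired differences had the same sign. The labels do not tie same-numbered libraries together. Over the 12129 regions of all 4 libraries, the deviations of same-numbered libraries from their genotype means correlated at -0.0946 for score percentile and 0.130 for covered length, as a description across regions, and both libraries numbered 2 listed 4 chromosome Y peaks where those numbered 1 listed none.

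With the upper 75% of each list the median length was 1947 bp, the distance to WT 25262 bp, the share near shared regions 19.1%, the grouped share 7.90% and the share on a Smc1a site 8.64%. With equal list sizes the length was 1922 bp, the KO replicate 2 percentile 21.2 and the distance 24544 bp. That percentile is a rank within the shortened list, so it is not on the scale of the 23.4 of the full list. The shares near shared regions and on a Smc1a site were 19.8% and 8.62%. Merging within 1000 bp gave 19697 bp, 22.7% near shared regions and 9.46% grouped. Requiring 50% cover gave 1676 bp in length, percentiles of 18.7 and 26.7, a distance of 10134 bp and 14.8% grouped. Windows of 5000 and 25000 bp gave 18.1% and 45.4% near shared regions, and windows of 25000 and 100000 bp gave 8.55% and 15.8% grouped. The upper 75% of the Smc1a lists gave 4.20% on a site and 24.3% within 10000 bp, and windows of 5000 and 20000 bp gave 17.2% and 45.5%. Replicate 1 of Smc1a alone gave 13.9% and 47.0%. Read depth is unknown, so a missing call cannot be set against it.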
